A study of Eucalyptus camaldulensis with 12 samples.

Results

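From 42361 predicted transcripts in leaves of Eucalyptus camaldulensis, the river red gum, 4 were chosen that had 2 reads or fewer in 1 of 3 natural populations and at least 60 reads in each of the other populations. They were chosen by the number of reads summed over the 4 libraries of a population. Absent is used here only in that sense. The transcripts absent from Katherine were 2, those absent from Mt Isa were 2, and 0 were absent from Petford. A further 2 transcripts of scaffold_4, which met the same limits with Mt Isa as the absent population, were left out of the choice, and they are neither described nor included in the numbers of absent transcripts given here.

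The study grew seedlings from Katherine, Mt Isa and Petford in a glasshouse and sequenced leaf RNA in 12 libraries. Each library was a bulk of leaves of several seedlings of 1 population. S1 libraries hold 10 seedlings at the end of about 2 months with the pots kept at 30% of field capacity, and C1 libraries hold 5 seedlings watered to field capacity over the same time. S0 and C0 libraries are leaves of the same bulks of 10 and 5 seedlings, taken before stress was imposed. Every group thus has 3 libraries, 1 per population. For Mt Isa, the source descriptions of C1 and S0 are at odds with the titles, which were followed.

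Natural populations of a forest tree can differ in which genes they carry as well as in how strongly they transcribe them. A gene missing from some individuals gives no RNA at all there, while a gene that is present may be silent in a tissue or at a stage. Reads of a diverged copy may also fail to map to the genome of another species. These libraries were mapped to the draft genome of E. grandis, a relative, so a lack of mapped reads, of transcription and of the gene itself cannot be told apart. In RNA from bulked leaves, fewer cells of a type and less RNA per cell cannot be told apart either.

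Library totals ranged from 1726793 to 6951584 counts over 43180 distinct transcripts. The totals of the populations were 12693553 in Katherine, 9107870 in Mt Isa and 17968959 in Petford. The leaf genes RBCS1A, a subunit of Rubisco, and LHB1B1, a light-harvesting protein, were at 1610 CPM or more in every library (CPM are reads per 1000000 of the library total after scaling), but lower at the end of the period than at its start. RBCS1A was at 1610 to 3570 CPM in S1 and 18500 to 54100 CPM in S0, and at 6340 to 13500 CPM in C1 and 23600 to 33000 CPM in C0. LHB1B1 was at 4360 to 4930 CPM in S1 and 13000 to 22600 CPM in S0, and at 5760 to 8300 CPM in C1 and 14300 to 15200 CPM in C0. The desiccation-responsive gene RD29B was at 1030 to 1630 CPM in S1 and at 9.04 to 21.2 CPM in C1. A marker of the young epidermis, protodermal factor 1, was at 0 in all S1 libraries, against 6.96 to 196 CPM in C1. The other epidermis marker, LTP3, a lipid transfer protein, was at 2450 to 5600 CPM in S1, against 711 to 938 CPM in C1.

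None of the 4 transcripts was paired with a gene identifier in the tables at hand, which name 5.52% of the distinct transcripts. They are therefore given by position on the E. grandis scaffolds, and no function is attributed to them. The first lies at scaffold_1:34918195-34919269 and is called the scaffold_1 transcript. A pair lies on the short scaffold_62, at scaffold_62:32529-33269 (scaffold_62 A) and at scaffold_62:120824-122227 (scaffold_62 B). The last lies at scaffold_7:47496519-47498296 and is called the scaffold_7 transcript. Their spans were 1074, 740, 1403 and 1777 bases in the same order, all shorter than the median span of 2733.5 bases among the 17382 transcripts with at least 60 reads in at least 2 populations.

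**Figure D1:**
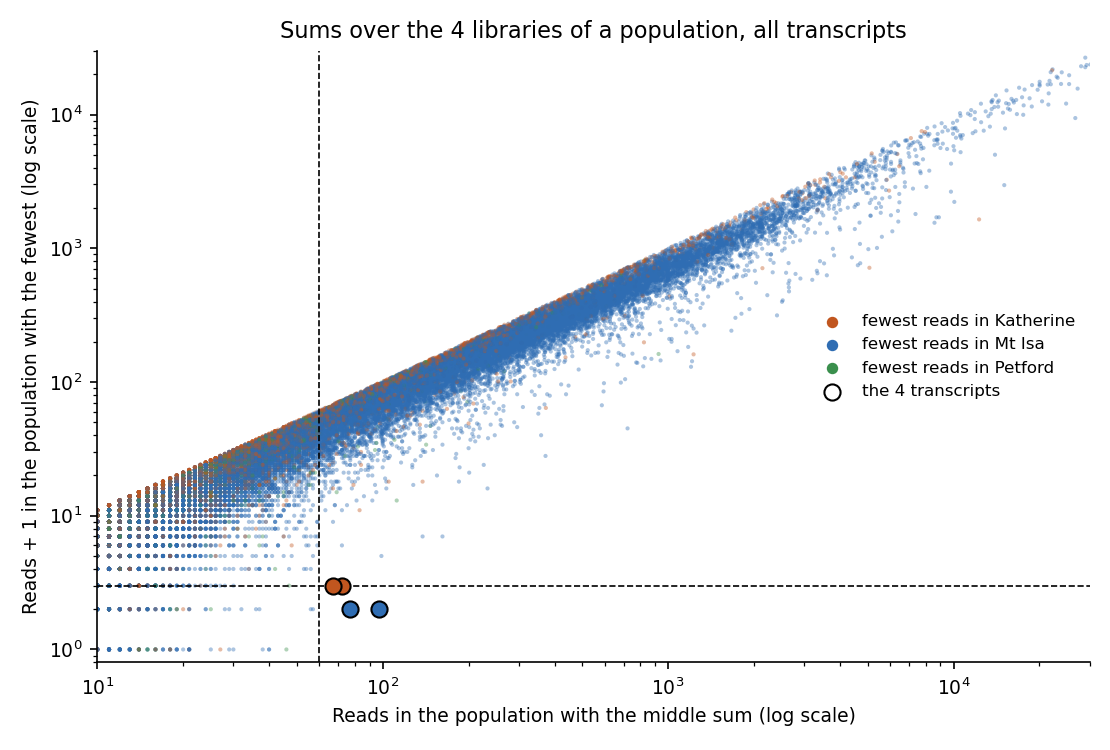
Each point is a predicted transcript; the x axis is its number of reads in the population with the middle sum and the y axis its reads plus 1 in the population with the fewest, both on log scales and summed over 4 libraries. Dashed lines mark 60 reads and 2 reads, colours the population with the fewest reads, and the 4 ringed points are the transcripts described, 2 of them absent from Katherine and 2 from Mt Isa.

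The scaffold_1 transcript had 2 reads in Katherine, 72 in Mt Isa and 210 in Petford. At the mean CPM of Mt Isa and Petford, the Katherine libraries would hold 91.4 reads. These sums are the values the transcript was chosen by, so the gap between populations is a description here and for the other transcripts, and no test or interval is given for it. The Katherine reads were 0 in S1, 0 in C1, 2 in S0 and 0 in C0. In Mt Isa they were 1 in S1, 1 in C1, 12 in S0 and 58 in C0, and in Petford 2, 2, 186 and 20 for the same groups. The transcript was thus found almost wholly before the treatment period, in both bulks of seedlings, and a single library, Petford S0, held 65.5% of its reads. Among the 17382 well-covered transcripts 0.144% had over 60% of their reads in 1 library. These shares are not fully alike, since the choice left Katherine nearly empty. In Petford the limit of 60 reads was also met only through S0, so the choice favoured a high share there.

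Scaffold_62 B, the other transcript absent from Katherine, had 2 reads there, 67 in Mt Isa and 248 in Petford. The Katherine libraries would hold 137 reads at the mean level of Mt Isa and Petford. By group, Katherine had 0 reads in S1, 1 in C1, 1 in S0 and 0 in C0. Mt Isa had 0 reads in S1, 31 in C1, 4 in S0 and 32 in C0, and Petford had 0, 86, 92 and 70. It was read in all C1, S0 and C0 libraries of the populations that had it and in none of the S1 libraries of any population.

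Scaffold_62 A had 1 read in Mt Isa, 77 in Katherine and 101 in Petford. The Mt Isa libraries would hold 70.3 reads at the mean level of Katherine and Petford. The single Mt Isa read was in S0. Katherine had 0 reads in S1, 25 in C1, 0 in S0 and 52 in C0, so that the bulk of 5 seedlings held all its reads and the bulk of 10 seedlings none. Petford had 4 reads in S1, 5 in C1, 91 in S0 and 1 in C0, so that here most reads came from the bulk of 10 seedlings before treatment. Presence of this transcript differed between bulks of a population as well as between populations.

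The scaffold_7 transcript had 1 read in Mt Isa, 140 in Katherine and 97 in Petford. The Mt Isa libraries would hold 79.1 reads at the mean level of Katherine and Petford. The Mt Isa read was in C0. Katherine had 40 reads in S1, 30 in C1, 58 in S0 and 12 in C0, and Petford had 45, 12, 27 and 13. Of the 4 transcripts, it and the scaffold_1 transcript had a read in all 8 libraries of the populations that had them, but the scaffold_7 transcript alone stayed above 3 CPM in all 8, from 3.63 to 22.6 CPM. The lowest level of the other transcripts in those libraries was between 0 and 0.308 CPM.

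**Figure D2:**
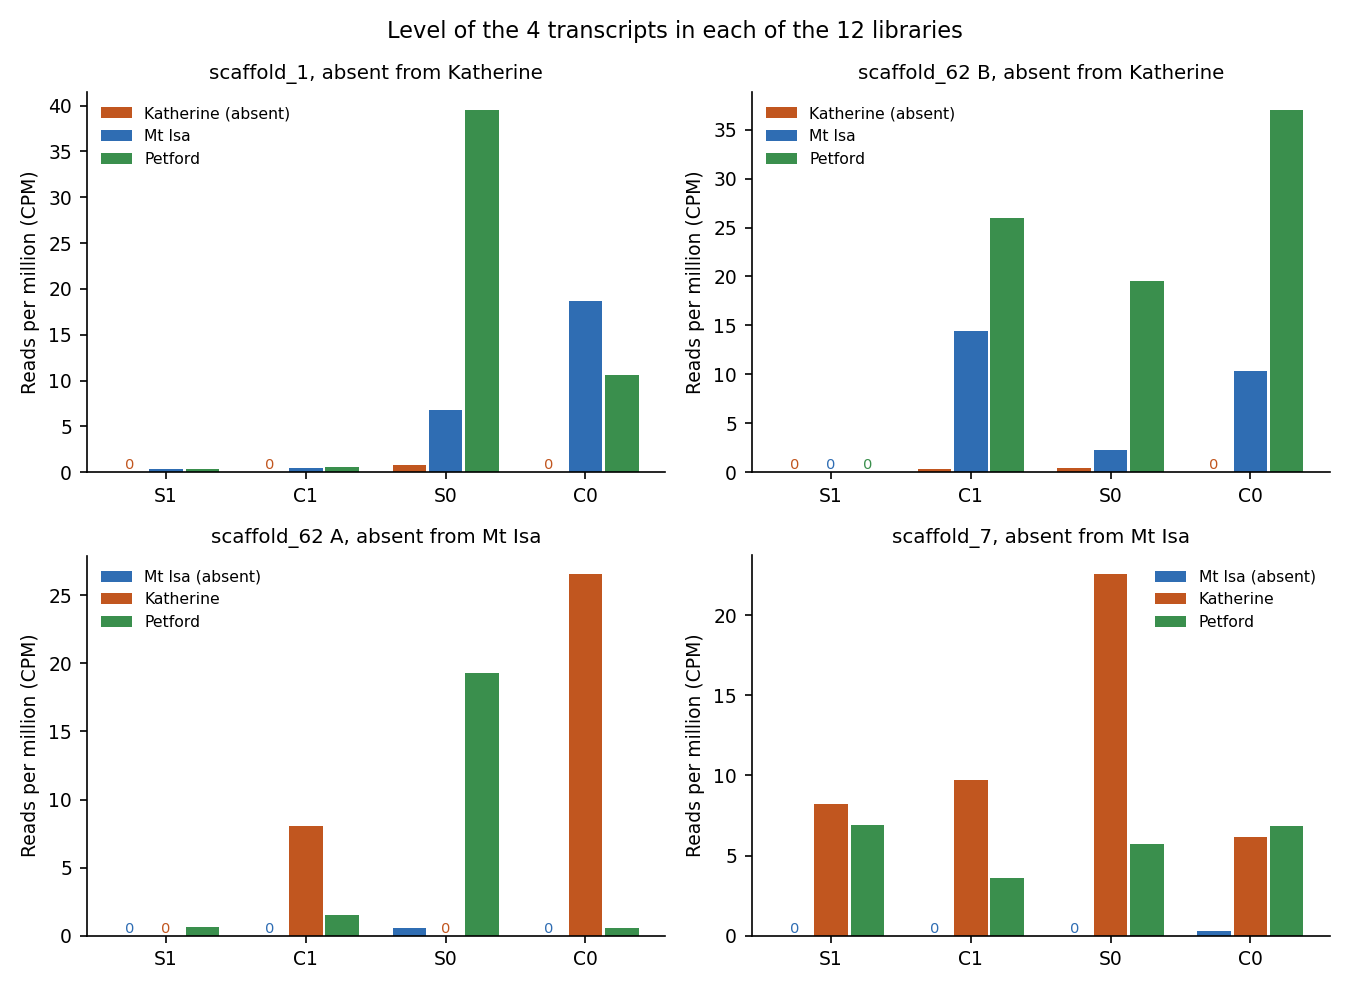
Bars give the level of each transcript in CPM in each of the 12 libraries, by group (S1, C1, S0, C0) and population, with 1 library per bar and a 0 where no read was counted. The scaffold_1 bars stand in S0 and C0, scaffold_62 B has none in S1, scaffold_62 A has its tall bars in Katherine C0 and Petford S0, and scaffold_7 has Katherine and Petford bars from 3.63 to 22.6 CPM in all groups.

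The number of transcripts that could have been chosen was similar among populations. Those with at least 60 reads in both of the other populations were 15312 for Katherine, 17150 for Mt Isa and 15156 for Petford, of which 0.0131%, 0.0117% and 0% were absent. With the sums scaled to the depth of Mt Isa, both transcripts absent from Katherine were still chosen, while those absent from Mt Isa fell below 60 reads in another population and were not. Just outside the limits, scaffold_5:67221475-67222987 had 4 reads in Mt Isa, against 99 in Katherine and 292 in Petford. The transcript scaffold_4:26678933-26679060 had 1 read in Mt Isa, 57 in Katherine and 72 in Petford. With 3 to 5 reads in the lowest population there were 2 further transcripts, both lowest in Mt Isa. With 30 to 59 reads in the lower of the other populations there were 12, of which 10 were lowest in Mt Isa and 2 in Petford. One of these, scaffold_8:30796109-30798668, had 0 reads in Petford, 46 in Katherine and 52 in Mt Isa.

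The reads on neighbouring transcripts showed how far each absence extended. On scaffold_7 a second predicted transcript, ending at 47500828, shares the start and overlaps it, and had 1 read in Mt Isa, 171 in Katherine and 138 in Petford. These 2 share reads and count as 1 locus. The next transcripts, 2.9 and 3.7 kb beyond the end of the scaffold_7 transcript, had 0 and 0 reads in Mt Isa, against 8 and 11 in Katherine and 12 and 9 in Petford, so that none of the 4 adjoining predictions had more than 1 Mt Isa read. The flanking transcripts were read in Mt Isa. The one 86.0 kb before had 73 reads in Mt Isa, 55 in Katherine and 16 in Petford, and the one 78.9 kb beyond had 737, 1142 and 1296.

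Around the scaffold_1 transcript the absence did not extend to the neighbours. The nearest transcript before it, at 42.7 kb, had 17 reads in Katherine, 7 in Mt Isa and 10 in Petford. The nearest beyond it, at 24.4 kb, had 15, 3 and 30. All 8 neighbours looked at had 4 or more Katherine reads.

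Scaffold_62 holds 10 predicted transcripts, 0.0236% of all, and 2 of the 4 described here, which lie 87.6 kb apart and are absent from different populations. Beyond scaffold_62 B, the next transcripts at 0.1 and 0.6 kb had 1 and 0 reads in Katherine, against 8 and 7 in Mt Isa and 22 and 20 in Petford. The transcript 5.0 kb before it had 57 reads in Katherine, 123 in Mt Isa and 36 in Petford. Next to scaffold_62 A, the transcript 17.1 kb beyond had 69 reads in Mt Isa, 29 in Katherine and 61 in Petford, and that 20.7 kb beyond had 0, 2 and 83. On this scaffold neighbours thus differed in which populations had reads.

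**Figure D3:**
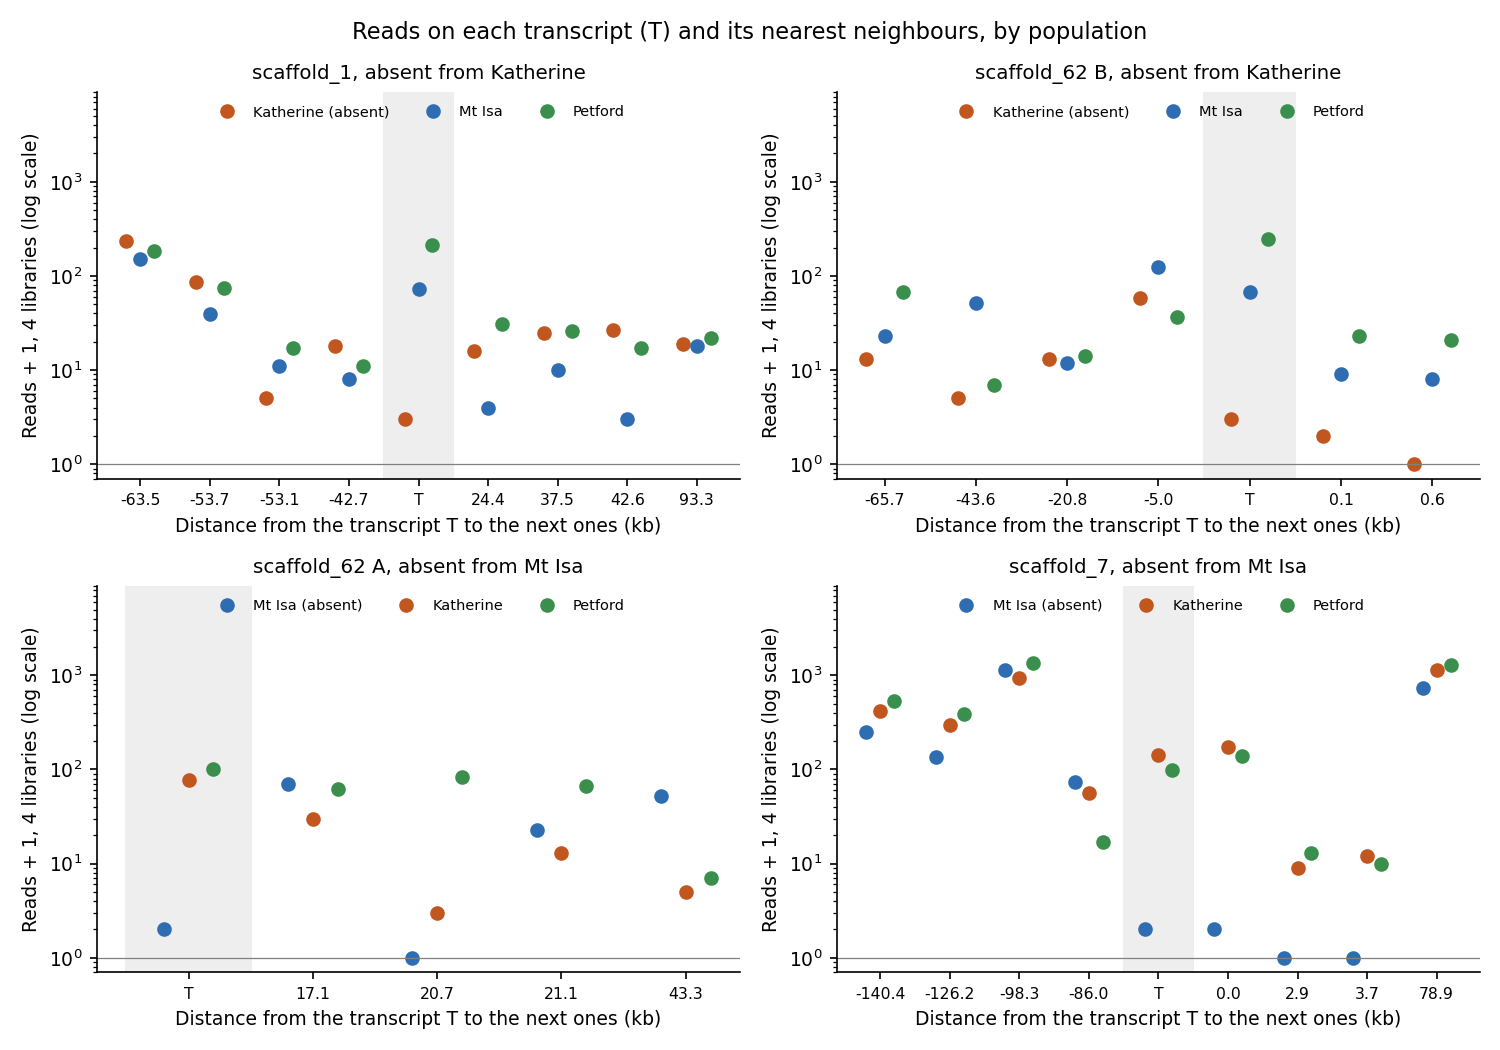
For each transcript (T, grey band) and up to 4 neighbours on each side, points give the reads plus 1 over the 4 libraries of a population on a log scale, with the distance in kb below; a point on the grey line is 0 reads. Mt Isa has 0 or 1 read on the scaffold_7 transcript and the 3 predictions after it and 737 reads on the next, whereas Katherine has 15 or more reads on the transcripts right beside the scaffold_1 transcript.

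The comparison of stressed with watered seedlings at the end of the treatment asks which transcripts differed between S1 and C1. These are bulks of different seedlings, so the comparison cannot separate water stress from the individuals that were bulked. Some transcripts already differed between the bulks of a population before stress was imposed, as given below for S0 against C0. The groups were tested on the whole table by edgeR's quasi-likelihood F test, adjusted after Benjamini and Hochberg, and called at an adjusted p under 0.01. The choice of the 4 transcripts used sums over all groups, but it is not independent of the group tests here and below. The read limit of a population could be met through the groups with most reads, so the choice may have favoured differences between groups. Of the 4 transcripts, 1 was still chosen without C0, 2 without C1, 2 without S0 and 3 without S1. The populations are the replicates, each a single bulk per group, so the p-values measure the spread between these libraries, which holds the gap between populations that the choice of transcripts fixed. In S1 against C1, 1 of the 3 transcripts with enough reads for the test was called and was lower in S1, where 22.3% of the 40440 transcripts tested were called and 12.5% called lower. This was scaffold_62 B, with 0 reads over the S1 libraries and 118 over the C1 libraries, at least 64.2-fold lower in S1 taking 3 reads per group as the floor. Its mean level was 0 CPM in S1 and 13.6 ± 12.9 CPM in C1 (SD, n = 3 each), and the groups did not overlap, although Katherine had only 1 read in C1. The adjusted p of edgeR's test was 0.00485. Without Mt Isa the adjusted p was 0.0355, at a fitted log2 fold change of -8.97, and without Petford it was 0.0641, at -7.59, against -8.75 with all 3 populations. The call was thus lost without Mt Isa and without Petford, while the fitted difference stayed large. Without Katherine, which had few reads of the transcript, the call held at a log2 fold change of -9.31 (edgeR, adjusted p = 3.12e-04). Of the epidermis markers, protodermal factor 1 was also at 0 in all S1 libraries. The other, LTP3, went the other way, at 2450 to 5600 CPM in S1 and 711 to 938 CPM in C1. In S0, where scaffold_62 B had 97 reads, protodermal factor 1 was at 0 to 0.569 CPM. The part of either marker in this result was not tested.

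The other transcripts were not called in S1 against C1. Scaffold_62 A had 4 reads over the S1 libraries, all in Petford, and 30 over the C1 libraries, 25 of them in Katherine. In Katherine it was already at 0 reads in S0, against 52 in C0, before stress was imposed. In Petford it had 4 reads in S1 and 5 in C1. Its fitted log2 fold change was -3.57 ± 1.25 (SE), with an adjusted p of 0.0476 in edgeR's test. The scaffold_7 transcript was at 8.20 CPM in S1 and 9.69 CPM in C1 in Katherine, and at 6.93 CPM in S1 and 3.63 CPM in C1 in Petford. Its log2 fold change was 0.11 ± 0.92 (SE; edgeR, adjusted p = 0.945). The scaffold_1 transcript had 3 reads in each group and was below the minimum of 10 reads.

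The bulks of 10 seedlings were compared at the end of the stress and before it, with the same seedlings in both. In S1 against S0, 2 of 4 transcripts were called, both lower in S1, where 19.2% of 40244 transcripts were called and 10.3% called lower. The scaffold_1 transcript had 3 reads in S1 and 200 in S0, and its pooled level in S0 was 103 times that in S1 (Clopper-Pearson 95% interval 34.7 to 504, counting error only). It was lower in S1 in both populations that had it, at 0.385 CPM in S1, against 6.83 CPM in S0, in Mt Isa and at 0.308 CPM in S1, against 39.5 CPM in S0, in Petford. The log2 fold change was -6.17 ± 1.30 (SE; edgeR, adjusted p = 0.00367). Scaffold_62 B had 0 reads in S1 and 97 in S0, at least 50-fold lower in S1, with an adjusted p of 0.00874 in edgeR's test. Of the S0 reads of scaffold_62 B, 92 were in Petford. The leaf markers RBCS1A and LHB1B1 were also lower in S1 than in S0, without overlap, and their part in these results was not tested.

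Because S1 and S0 hold the same seedlings, the population was also used as a block. The block brought scaffold_62 A to a log2 fold change of -4.94 ± 0.81 (SE; edgeR, adjusted p = 1.05e-08), so that 3 of 4 transcripts were called, against a background of 29.5% called and 15.4% called lower. Its reads were 4 in S1 and 91 in S0 in Petford, while Katherine had 0 reads in both and Mt Isa 0 in S1 and 1 in S0, so this call rested on a single pair of libraries. Without the block its adjusted p was 0.0297. The calls made without a block, for the scaffold_1 transcript and scaffold_62 B, were not kept without Mt Isa or without Petford. Without Katherine, which had few reads of either, both held, with adjusted p of 0.00197 and 0.00673 in edgeR's test. Without Mt Isa the scaffold_1 transcript had a log2 fold change of -6.76 (edgeR, adjusted p = 0.0216), and scaffold_62 B one of -8.65 (adjusted p = 0.0284), against -8.03 with all 3 populations. Without Petford the scaffold_1 transcript had a log2 fold change of -4.38 (adjusted p = 0.084), and scaffold_62 B had too few reads to test. For scaffold_62 B, DESeq2 gave an adjusted p of 0.0115. The scaffold_7 transcript was not called, with a log2 fold change of -0.85 ± 0.94 (SE; edgeR, adjusted p = 0.547).

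The watered seedlings sampled at the end and at the start show what moved over the same period without stress. In C1 against C0, 0 of 4 transcripts were called by edgeR's test without a block, where 6.25% of 36197 transcripts were called, and 1 had an unadjusted p under 0.05. This was the scaffold_1 transcript, which had 3 reads in C1 and 78 in C0, with a pooled level in C0 that was 32 times that in C1 (95% interval 10.5 to 158, counting error only). It was at 0.464 CPM in C1, against 18.7 CPM in C0, in Mt Isa and at 0.605 CPM in C1, against 10.6 CPM in C0, in Petford. The log2 fold change was -4.70 ± 1.13 (SE; edgeR, adjusted p = 0.0154). With the population as a block, which the shared seedlings allow, it was -4.48 ± 0.66 (SE; edgeR, adjusted p = 1.77e-07) and was called lower, where 11.8% of all transcripts were called and 6.52% called lower. DESeq2 without a block also called it (adjusted p = 7.39e-04). The scaffold_1 transcript was thus scarce at the end in watered and in stressed seedlings alike, with 3 reads in each group. RBCS1A and LHB1B1 were lower in C1 than in C0 too, without overlap, and their part in this result was not tested.

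The remaining transcripts did not pass the test in C1 against C0. Scaffold_62 B was at 14.4 CPM in C1 and 10.3 CPM in C0 in Mt Isa, and at 26.0 CPM in C1 and 37.0 CPM in C0 in Petford. Its log2 fold change was -0.21 ± 0.95 (SE; edgeR, adjusted p = 0.939). Scaffold_62 A had 25 reads in C1 and 52 in C0 in Katherine and 5 and 1 in Petford. Its log2 fold change was -1.39 ± 1.23 (SE; edgeR, adjusted p = 0.593).

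**Figure D4:**
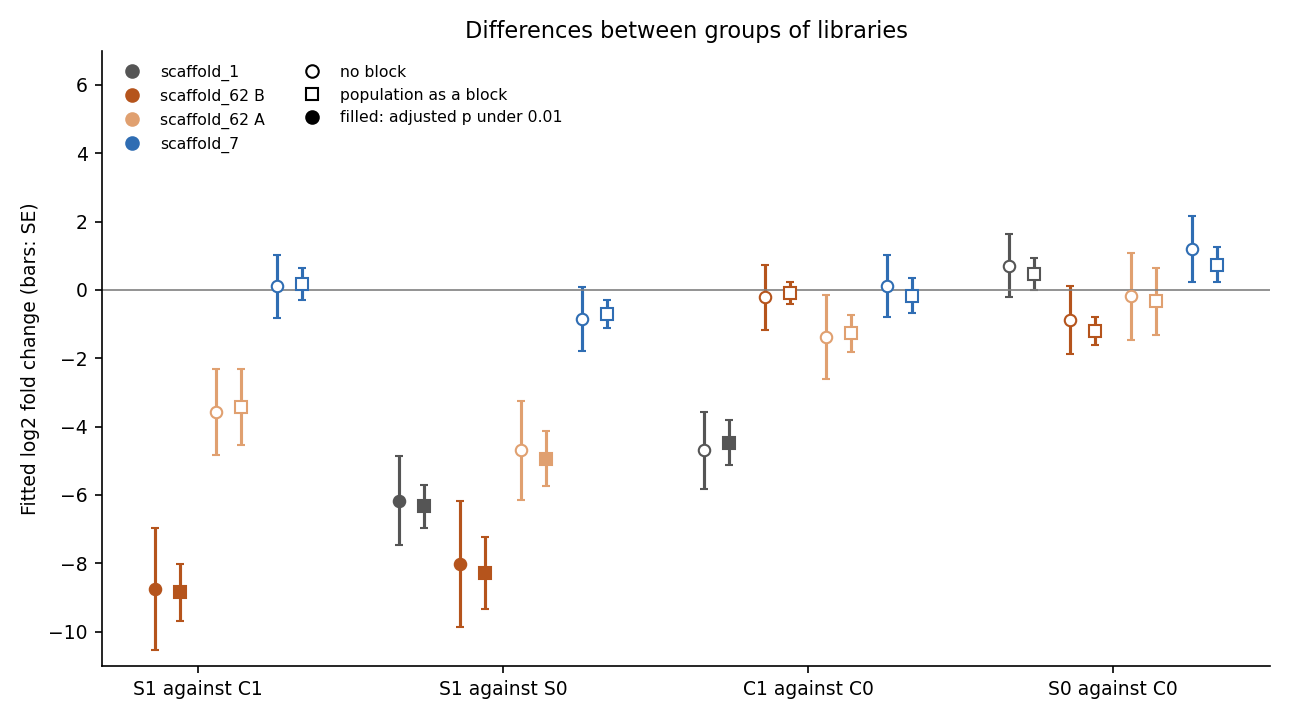
The y axis is the fitted log2 fold change, first named group over the second, with its standard error as bars; circles are fits without and squares with the population as a block, and filled symbols have an adjusted p under 0.01. Scaffold_62 B is low in both comparisons of S1, the scaffold_1 transcript in S1 against S0 and C1 against C0, and no symbol is filled for scaffold_7 or in S0 against C0; fold changes of scaffold_62 B in S1 rest on 0 reads and are no bounds.

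S0 and C0 are both leaves of untreated seedlings of the same day, in bulks of different individuals. In S0 against C0, 0 of 4 transcripts were called by edgeR's test, where 0.191% of 36048 were called. None had an unadjusted p under 0.05, and DESeq2 called 0. The 2 bulks nevertheless held different amounts of some transcripts within a population. Scaffold_62 A was at 0 CPM in S0 and 26.6 CPM in C0 in Katherine, and at 19.3 CPM in S0 and 0.528 CPM in C0 in Petford. On the log2(CPM + 0.5) scale these are differences of -5.76 and 4.27, where 2.77% of transcripts in Katherine and 2.03% in Petford differed by 4-fold or more. The scaffold_1 transcript was at 6.83 CPM in S0 and 18.7 CPM in C0 in Mt Isa, and at 39.5 CPM in S0 and 10.6 CPM in C0 in Petford. The scaffold_7 transcript was at 22.6 CPM in S0 and 6.14 CPM in C0 in Katherine, and at 5.73 CPM in S0 and 6.87 CPM in C0 in Petford. On the same log2 scale the scaffold_1 transcript differed by -1.39 in Mt Isa and 1.85 in Petford. The scaffold_7 transcript differed by 1.8 in Katherine and -0.24 in Petford. All of these were short of 4-fold. With 1 library per bulk and population, none of these differences within a population has a replicate.

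Seen over all groups, S1 took a small part of the level of 3 of the 4 transcripts. The share of the summed CPM that lay in S1 was 0.897% for the scaffold_1 transcript, 0% for scaffold_62 B and 1.09% for scaffold_62 A, whereas it was 21.7% for the scaffold_7 transcript. For the scaffold_1 transcript the C1 share was small too, at 1.38%. These shares were taken over the populations that had the transcript. Over all 3 populations, the median S1 share of the 17382 well-covered transcripts was 26.9%, and 2.77% of them had under 2% of their level in S1. Only 22 of them, 0.127%, had 0 reads in every S1 library, among them scaffold_62 B.

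Few reads in S1 were also seen on the rest of scaffold_62. Its 8 other transcripts held 26 reads over the S1 libraries, against 210 in C1, 276 in S0 and 203 in C0, though the S1 library was the deepest of its population in Katherine and Petford. No S1 read was counted on 3 of the 8, and 7 of the 8 had 5 S1 reads or fewer. The 8 had only 27 to 216 reads each over all libraries. How many transcripts of like depth had so few S1 reads was not counted. The exception was scaffold_62:99769-100042, with 16 reads in S1, 10 in C1, 5 in S0 and 5 in C0. Petford S0 held 31.1% of the reads on all 10 transcripts, from 0% to 87.1% per transcript. It held 50.8% of the reads of scaffold_62 A and 29% of those of scaffold_62 B.

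**Figure D5:**
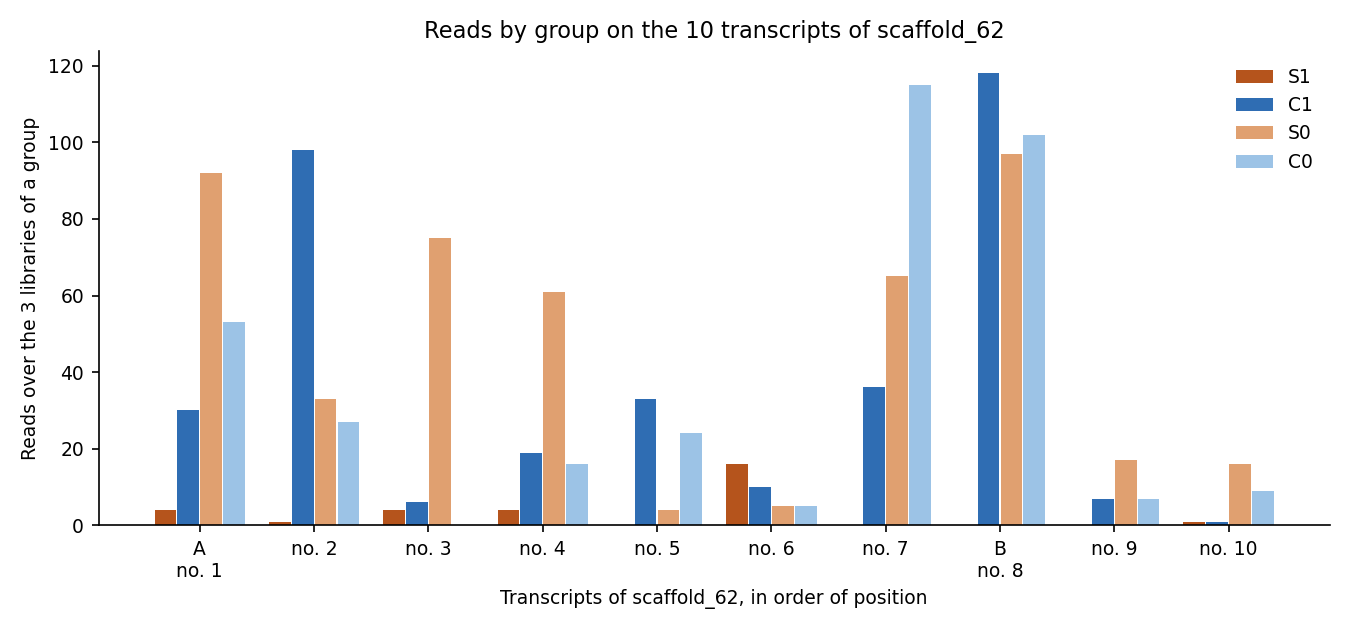
Bars give the reads over the 3 libraries of each group on the 10 predicted transcripts of scaffold_62, numbered by position, with A and B the transcripts absent from Mt Isa and Katherine. Bars of S1 are at 0 to 4 reads except on number 6, with 16 reads, while C1, S0 and C0 reach 118, 97 and 115 reads.

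The choice asked for at least 60 reads in each population with the transcript. At low counts this bounds how far the level can differ between these 2 populations, so the test is not independent of the choice. Such a difference was tested over all 12 libraries with the group as a term. The 4 libraries of a population come from only 2 bulks of seedlings, which the fit treats as 4 independent libraries, so its p-values can be too small. Between Mt Isa and Petford, 1 of the 2 transcripts absent from Katherine was called, where 0.661% of 43146 transcripts were called and 0.44% called lower in Mt Isa. Scaffold_62 B was lower in Mt Isa than in Petford in each of C1, S0 and C0, with a log2 fold change of -1.68 ± 0.35 (SE; edgeR, adjusted p = 0.00859). That call did not hold with DESeq2 (adjusted p = 0.096), without the C0 libraries (0.123) or without the S0 libraries (0.0978). The scaffold_1 transcript was not called (log2 fold change -0.68 ± 0.48, SE; edgeR, adjusted p = 0.714). Between Katherine and Petford, 0 of 2 transcripts absent from Mt Isa were called by edgeR's test, where 0.447% were called, and 1 had an unadjusted p under 0.05. This was the scaffold_7 transcript, at a log2 fold change of 0.93 ± 0.35 (SE; edgeR, adjusted p = 0.28). Scaffold_62 A had a log2 fold change of 0.55 ± 0.88 (SE; edgeR, adjusted p = 0.934), and DESeq2 called neither.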

How the data were processed

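The deposited values are raw read counts per predicted transcript. The authors mapped Illumina reads to the draft E. grandis genome with TopHat and Bowtie, predicted transcripts with Cufflinks and counted with bedtools. Their versions and the genome release were not given in the sources used here. Without strand, antisense reads cannot be separated. Of 43425 rows, 245 identical ones were dropped, and 1 row was kept per scaffold and start, which left 42361 for the choice. Fits used all distinct rows with at least 10 reads over the libraries fitted, TMM and 2-sided tests in edgeR 4.0.16, limma 3.58.1 and R 4.3.3, with DESeq2 1.42.0 as an alternative. They were tested on simulated data, in which no transcript of the group comparisons was absent from a population. The simulation therefore does not show how the fits behave for the 4 transcripts. SE was taken back from the F statistic and may be understated for groups with few reads. The block rests on shared seedlings: deviations of the 2 libraries of a population correlated at 0.217 to 0.238 for C1 and C0 and at 0.189 to 0.295 for S1 and S0. The members, lists and tests were chosen with earlier results of these data known. Named were all members, their neighbours and those just outside the limits. Gene identifiers came from the study's supplementary tables, by coordinates or SNP position. Gene lists could not be applied to transcripts without identifiers.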

Additional observations from a re-analysis of the deposited data

Results flagged for a closer look

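In the populations that had a transcript, the difference between 2 groups was in opposite directions in 8 of the 16 cases looked at. Each rests on 1 library per group and population, and the difference between populations was not tested. No share over all transcripts was taken beside this count. Some differences were small, such as 0.46 in Mt Isa and -0.5 in Petford for scaffold_62 B in C1 minus C0. Values are log2(CPM + 0.5) differences, the first population less the second. For S0 minus C0, Mt Isa less Petford gave -3.24 for the scaffold_1 transcript, and Katherine less Petford gave -10.03 for scaffold_62 A and 2.04 for the scaffold_7 transcript. For C1 minus C0, Mt Isa less Petford gave 0.96 for scaffold_62 B, and Katherine less Petford gave -2.63 for scaffold_62 A and 1.45 for the scaffold_7 transcript. For the scaffold_7 transcript, Katherine less Petford gave -1.08 for S1 minus C1 and -1.66 for S1 minus S0.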

How the results depend on the processing

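The number of transcripts chosen depended on the limits: 0 with no read allowed in the absent population, 16 with at least 30 reads in the others, 0 with at least 100, 2 with sums scaled to equal depth, and 2 to 5 when a group was left out. Membership changed too: of the 4 transcripts, 1 was among the 3 chosen without C0, 3 among the 5 without S1, and 2 were the 2 chosen without C1 and likewise without S0. Keeping all rows that share a start gave 5, and dropping them all, tried after seeing the data, gave 3. The number called in S1 against C1 (1) was 0 to 1 with a population left out, and stayed 1 with the replicate block, although these seedlings differ and deviations correlated at only 0.052 to 0.142 (scaffold_62 B, edgeR, adjusted p = 9.74e-07), where calls over all transcripts were 10071 against 9020 without it. The block also moved the calls over all transcripts to 4264 against 2263 in C1 against C0 and to 11872 against 7722 in S1 against S0. In C1 against C0 it was 1, in place of 0, with DESeq2, with no filter on low counts and with the population as a block in 6 or 12 libraries, and 0 to 1 with a population left out. In S1 against S0 it was 1 with DESeq2 and with at least 30 reads, in place of 2, and 0 to 2 with a population left out. Between populations it was 0, in place of 1, with RLE factors, DESeq2 or at least 30 reads, and 0 to 1 with a group left out. Of 163 alternative values of single transcripts, 130 kept direction and call, 12 lost the call, 7 gained it and 14 changed sign, none of them called. These were the scaffold_7 transcript in C1 against C0 (-0.05 with DESeq2, -0.17 with either block, -0.71 to 0.78 with a population left out), S1 against C1 (-0.31 to 0.81) and S1 against S0 (-1.42 to 0.15), scaffold_62 B in C1 against C0 (-0.53 to 0.25), scaffold_62 A in S0 against C0 (0.08 with the 12-library block, -5.49 to 5.46), the scaffold_1 transcript in S0 against C0 (-1.46 to 1.93), and between populations scaffold_62 A (-1.19 to 2.56) and the scaffold_1 transcript (-2.07 to 0.66). The cause was not tested. Leaving out a population or setting the filter at 30 reads also leaves fewer libraries or transcripts to fit.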

Other observations

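Among all transcripts with at least 10 reads, those whose log2(CPM + 0.5) over the 12 libraries was most like a member by Pearson's r were listed, by a rule chosen after the values were seen and with no test, since the libraries share populations and groups. The scaffold_7 transcript was closest to the prediction that shares its start (r = 0.996) and then to scaffold_1332:4943-5298 (r = 0.987), which had 0 reads in Mt Isa, 21 in Katherine and 16 in Petford. Scaffold_62 B was closest to scaffold_5:50537806-50538452 (r = 0.974), with 1 read in Katherine, 13 in Mt Isa and 44 in Petford and 0 in all S1 libraries. The scaffold_1 transcript was closest to scaffold_2:5448826-5449557 (r = 0.955), which had 96 reads in Katherine. Pearson's r does not compare the size of a change, and in Petford that transcript still had 41 reads in S1 and 34 in C1, against 123 in S0 and 33 in C0.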
